A study of Mus musculus with 10 samples.

Results

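Mouse T helper cells cultured toward the Th17 fate were compared with T helper cells cultured toward the Th2 fate, by messenger RNA arrays. The groups compared hold 7 of the 10 arrays of the series, chosen by the population named in their titles: 4 Th17 arrays and 3 Th2 arrays. All cultures were started from CD4+ lymphocytes of the spleens of wild-type female Balb/c mice aged 10 to 14 weeks, and all were activated through the T cell receptor by an antibody against CD3 (4 µg/ml) with costimulation by an antibody against CD28 (30 ng/ml). To the Th17 cultures 20 ng/ml IL-6, 5 ng/ml TGFβ and 10 ng/ml IL-23 were added, and to the Th2 cultures 100 ng/ml IL-4. Both groups, and not the 3 Th0 control cultures, were also given an antibody against IFNγ at 10 µg/ml, so the Th17 and Th2 cultures share it and differ in the added cytokines. The medium was renewed at 72 h, and the labels do not state when cells were harvested. Replicates are biological by their titles. Whether each had its own mouse is not stated, and p-values therefore reflect only how far these samples vary.

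Th17 cells defend mucosal surfaces against extracellular bacteria and fungi. IL-6 and TGFβ start this fate through STAT3 and SMAD proteins, IL-23 sustains it, and its secreted products include IL-17A, IL-17F, IL-21 and IL-22. Th2 cells serve defence against worms and take part in allergy. IL-4 starts that fate through STAT6, which raises the transcription factor GATA3, and Th2 cells release IL-4, IL-5 and IL-13. Each programme is known to hold down the other.

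Values are log2 expression levels, so a difference of 1 is a doubling, and n = 4 for Th17 and n = 3 for Th2 throughout. Of 22180 genes tested, 17 were called, which means a two-sided limma test with a Benjamini-Hochberg adjusted p under 0.05. This is 0.0766% of the genes. The test took its estimate of spread from all 10 arrays of the series, the Th0 arrays included. The cells carried T cell transcripts on every array. Cd3e, a subunit of the T cell receptor complex, lay between 9.36 and 10.44 on the 7 arrays, and Cd4 between 7.09 and 8.53. The 7 arrays were not alike within their groups. On the first principal component of all genes, which held 35.8% of the variance, Th2 replicate 1 stood at -34.0 and Th2 replicates 2 and 3 at 38.9 and 55.8, while Th17 replicate 4 stood at 37.5 and the other Th17 arrays between -22.7 and -13.9. The mean of the cell cycle genes was 7.51 on Th2 replicate 1 and 6.06 and 6.05 on Th2 replicates 2 and 3. The part of cell state or RNA quality in these gaps was not tested. In bulk cultures, fewer cells of a type and less RNA per cell cannot be told apart.

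Of the 17 called genes, 13 rose in Th17 against Th2 (0.0586% of all genes) and 4 fell (0.0180%). The 13 were Ctsw, Il17f, Gatm, Gpr15, Klrd1, Pdpn, Itgae, Adam19, Plod2, Nt5e, Acpp, Cldnd1 and Slc15a3, and the 4 were Clec2i, Gramd1b, Dusp6 and S100a1. The smallest change among them was 2.62-fold. In all 17 the Th17 and Th2 arrays did not overlap, against 5.60% of all genes, 2.60% with Th17 higher and 3.00% with Th17 lower. Il17f, Ctsw and Gatm stayed called when any 1 of the 10 arrays was left out.

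**Figure D1:**
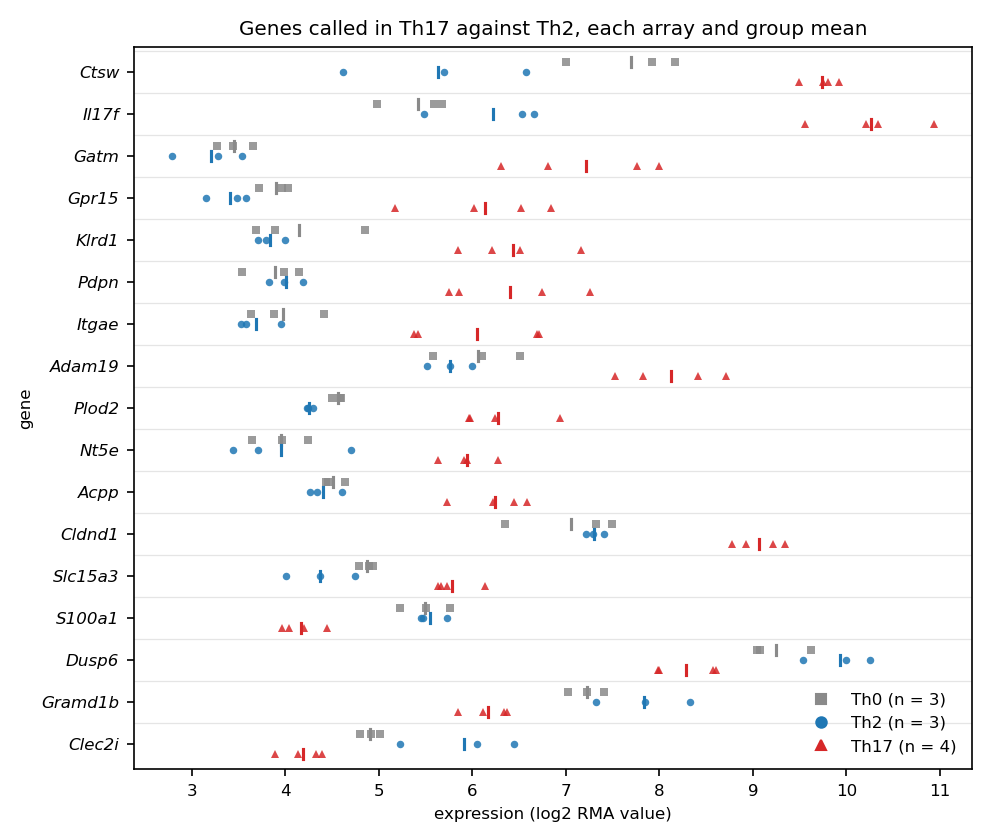
The log2 expression level (x axis) of each called gene (y axis) on every array, with squares for Th0, circles for Th2, triangles for Th17 and a vertical bar for each group mean. Th17 triangles and Th2 circles do not overlap for any of the 17 genes, and the 3 largest differences, those of Ctsw, Il17f and Gatm, are 4.11, 4.04 and 4.02.

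The secreted Th17 cytokines were led by Il17f. In Th17 replicates 1 to 4 its level was 10.94, 10.21, 9.55 and 10.34, and in Th2 replicates 1 to 3 it was 5.48, 6.53 and 6.66. The lowest Th17 array was therefore well above the highest Th2 array, and the difference was 4.04 (SE 0.35, 95% interval 3.26 to 4.81), a 16.4-fold rise with adjusted p = 0.00321. Il17a, its neighbour in the same gene family, was 10.54, 10.31, 10.35 and 10.13 on the Th17 arrays and 5.48, 7.05 and 7.89 on the Th2 arrays. These groups did not overlap either, but the Th2 arrays were more than 2 log2 units apart, and the difference of 3.53 (95% interval 1.63 to 5.42) had an adjusted p of 0.328. Without Th0 replicate 3, where Il17a was 3.46 against 7.55 and 7.31 on the other Th0 arrays, its adjusted p was 0.0332, the 1 fit of the 10 without a single array in which it passed, and without Th2 replicate 2 it was 0.879.

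Il21, a cytokine that acts back on Th17 cells and on B cells, was 9.73, 9.13, 9.22 and 10.22 on the Th17 arrays and 5.97, 6.91 and 7.24 on the Th2 arrays. The difference was 2.87 (95% interval 1.44 to 4.29, adjusted p = 0.263). When Th0 replicate 2, at 8.52, was left out, the adjusted p was 0.0358, again the 1 such fit in which it passed, and without Th2 replicate 2 it was 0.806. Il22, which acts on epithelial cells, was 2.89, 3.39, 5.35 and 5.14 in Th17 and 1.87, 2.27 and 2.31 in Th2. Th17 replicates 3 and 4 stood above replicates 1 and 2, and the difference of 2.04 did not pass (95% interval 0.91 to 3.17, adjusted p = 0.353). Of the 9 effector cytokine genes listed, 1 was called, 4 had Th17 above Th2 on every array, and 0 had Th17 below on every array. Their median difference was 1.38, beside -0.01 for all genes. Over all genes, 0.0766% were called, 2.60% had Th17 wholly above Th2 and 3.00% wholly below. This list and those below were drawn up with earlier results of these arrays known. Their counts and medians are therefore descriptions and no independent evidence of a theme.

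The promoter windows printed here are those of genes that rose and held AGGTCA, a hexamer that ROR factors bind. Its presence in each of them therefore follows from the choice. RefSeq windows (GRCm38.p6) were at hand for 8 of the 13 genes that rose and 3 of the 4 that fell, and the 250 bases before each start were searched on both strands. The nuclear receptor half-site AGGTCA was found in 4 of the 8 windows of genes that rose, in 0 of the 3 windows of genes that fell, and in 12.4% of 16990 windows of that length. The 4 windows are given 5′ to 3′ on the strand of the gene with AGGTCA or its complement TGACCT in capitals. The Adam19 window also has in capitals a match to TTCNNNNGAA, a STAT dimer spacing favoured by STAT6, near its left end, and CAGAC, the complement of the SMAD element GTCTG, near its right.
Il17f: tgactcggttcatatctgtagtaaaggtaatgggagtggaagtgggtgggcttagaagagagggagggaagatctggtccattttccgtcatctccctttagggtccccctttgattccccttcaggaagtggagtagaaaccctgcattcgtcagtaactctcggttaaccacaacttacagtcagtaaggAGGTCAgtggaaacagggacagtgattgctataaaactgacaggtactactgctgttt
Gatm: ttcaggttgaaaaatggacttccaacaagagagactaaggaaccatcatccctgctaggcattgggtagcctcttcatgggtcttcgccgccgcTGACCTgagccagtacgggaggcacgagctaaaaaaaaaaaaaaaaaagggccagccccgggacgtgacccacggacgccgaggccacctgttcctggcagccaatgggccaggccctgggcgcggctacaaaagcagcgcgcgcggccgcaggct
Pdpn: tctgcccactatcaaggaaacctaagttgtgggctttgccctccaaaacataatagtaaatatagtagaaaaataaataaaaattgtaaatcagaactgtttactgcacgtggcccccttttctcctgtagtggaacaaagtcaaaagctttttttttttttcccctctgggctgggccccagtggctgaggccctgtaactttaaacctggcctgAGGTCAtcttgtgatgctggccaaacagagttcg
Adam19: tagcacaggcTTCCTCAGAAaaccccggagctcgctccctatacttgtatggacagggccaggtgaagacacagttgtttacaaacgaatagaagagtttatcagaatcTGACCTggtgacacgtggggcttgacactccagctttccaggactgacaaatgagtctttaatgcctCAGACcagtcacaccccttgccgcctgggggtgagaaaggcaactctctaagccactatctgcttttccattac

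The windows lie at chr1:20784271-20784520 on the minus strand (Il17f), chr2:122611278-122611527 on the minus strand (Gatm), chr4:143299565-143299814 on the minus strand (Pdpn) and chr11:46054252-46054501 on the plus strand (Adam19), each directly upstream of the gene's annotated start. Counted back from the start, the hexamer covers bases 58 to 53 in Il17f, 156 to 151 in Gatm, 34 to 29 in Pdpn and 141 to 136 in Adam19. The other motifs were searched on both strands too, and no count of windows was tested. The STAT dimer TTCNNNGAA was in 0 of the 8 windows against 6.85% of all windows, and TTCNNNNGAA in that of Adam19 alone against 5.53%. The AP-1 element TGANTCA was in the window of Gpr15 (6.48% of all windows). The SMAD element GTCTG was in the windows of Gpr15, Adam19, Nt5e and Acpp, as in 40.8% of all windows. GCGTG, the core of the element bound by the aryl hydrocarbon receptor, was in that of Nt5e (34.2%). The GATA element AGATAA was in that of Acpp (9.09%). No searched motif overlapped another in the windows shown. The 3 windows of genes that fell held none of these motifs. A match describes letters in a window, and the arrays do not measure binding.

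Of 11 listed receptors by which Th17 cells sense their cytokines, 0 were called (0.0766% of all genes were). In 4 of them every Th17 array was above every Th2 array (2.60% of all genes). Il23r, the IL-23 receptor chain, was 5.94, 5.07, 5.51 and 4.52 in Th17 and 3.83, 3.61 and 3.55 in Th2. Th17 replicate 4 was the lowest of its group, and the difference was 1.60 (95% interval 0.99 to 2.20, adjusted p = 0.0866, or 0.0116 without Th17 replicate 4). Il1r1, the signalling receptor for IL-1, was 7.89, 6.98, 6.72 and 6.43 against 3.76, 4.74 and 4.74, a difference of 2.59 (95% interval 1.64 to 3.54, adjusted p = 0.0768). The IL-1 decoy receptor Il1r2 differed by 1.69 (adjusted p = 0.285, or 0.0481 without Th0 replicate 3) and the IL-18 receptor chain Il18r1 by 1.72 (adjusted p = 0.267, or 0.0331 without Th17 replicate 4). Without Th2 replicate 2 the adjusted p was 0.445 for Il23r, 0.920 for Il1r2 and 0.879 for Il18r1. The median difference of the 11 receptors was 0.86, and the groups overlapped for the other 7.

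Of 12 listed transcription factors of the Th17 fate 0 were called, where 0.0766% of all genes were. Among them Ahr and Rora had adjusted p-values nearest the threshold. Ahr, the aryl hydrocarbon receptor that Th17 cells need for IL-22, was 7.62, 5.97, 6.62 and 6.14 in Th17 and 4.08, 4.48 and 4.08 in Th2. Every Th17 array was above every Th2 array, the difference was 2.37 (95% interval 1.58 to 3.17), and the adjusted p was 0.0502, which became 0.0486 without Th17 replicate 1 and 0.216 without Th2 replicate 3. Rora, a ROR family receptor, was 4.97, 5.46, 5.07 and 5.47 against 3.93, 4.08 and 4.21, a difference of 1.17 (95% interval 0.76 to 1.57, adjusted p = 0.0586). Maf, which acts in both fates and is a regulator of Il21 and Il10, was 9.73, 9.51, 9.08 and 8.63 against 7.25, 5.59 and 6.98. Th2 replicate 2 was the lowest Maf array, and the difference of 2.63 (95% interval 1.56 to 3.70) had an adjusted p of 0.113. The groups did not overlap for 4 of the 12 factors, all higher in Th17 (2.60% of all genes), and overlapped for the other 8.

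**Figure D2:**
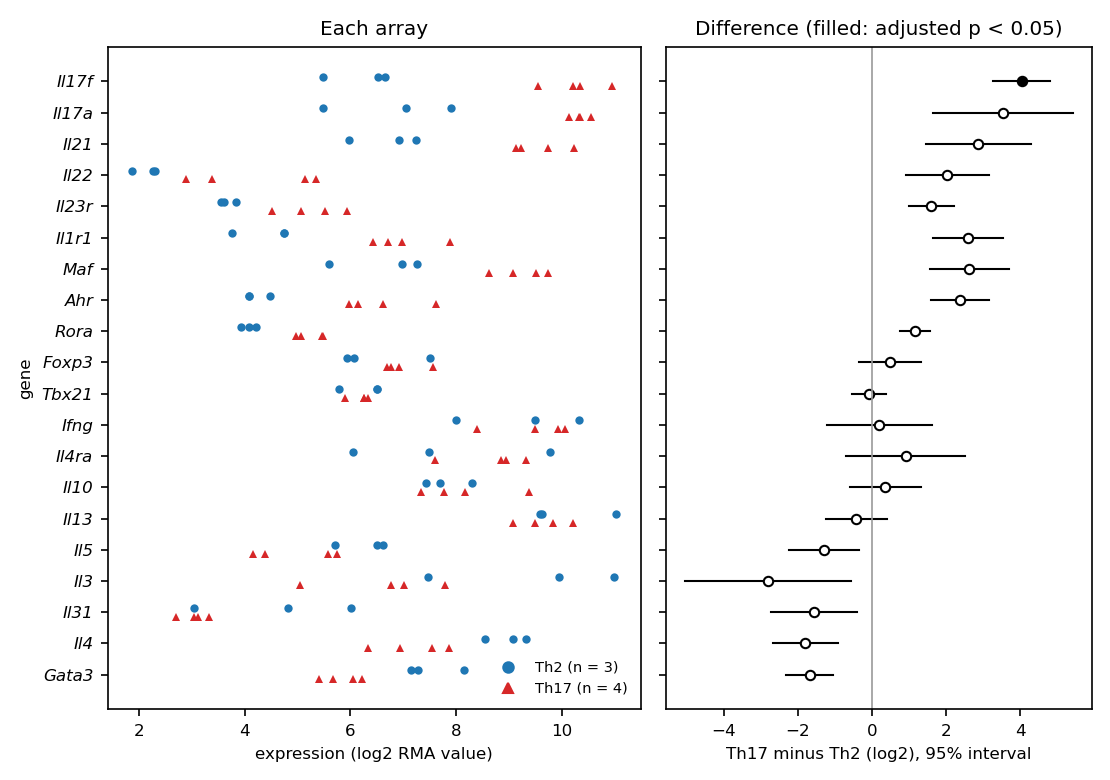
The left panel shows the log2 expression level of 20 genes of the Th17, Th2, Th1 and Treg fates on each Th2 (circle) and Th17 (triangle) array, and the right panel the difference Th17 minus Th2 with its 95% interval. Of these genes only Il17f, the filled point at 4.04, had an adjusted p under 0.05, while the intervals of Il17a, Il21, Il22, Il23r, Il1r1, Maf, Ahr and Rora lie above 0 and those of Il4, Il5, Il3, Il31 and Gata3 below.

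Several of the called genes encode cell surface proteins. Gpr15, a receptor that guides T cells to the large intestine, was 6.52, 6.84, 6.01 and 5.18 on the Th17 arrays and 3.48, 3.15 and 3.58 on the Th2 arrays, a 6.65-fold rise (adjusted p = 0.0151). Itgae, the αE integrin chain (CD103) that binds E-cadherin on epithelium, was 5.37, 6.71, 6.70 and 5.42 against 3.95, 3.57 and 3.53. Th17 replicates 2 and 3 were more than 1 log2 unit above replicates 1 and 4, and the rise was 5.15-fold with adjusted p = 0.0485, close to the threshold. Pdpn, the membrane glycoprotein podoplanin, was 7.26, 5.75, 5.86 and 6.74 against 3.83, 3.99 and 4.19, and here replicates 1 and 4 were the higher ones (5.28-fold, adjusted p = 0.0329). Of the 19 integrin and homing receptor genes listed, 2 rose (0.0586% of all genes did) and 4 had Th17 wholly above Th2 (2.60% of all genes). In 0 Th17 was wholly below, and the median difference was 0.47. Ccr7, which leads T cells to lymph nodes, was one of the 4, at 8.85, 8.91, 8.93 and 8.70 against 8.11, 7.39 and 7.03 (difference 1.34, adjusted p = 0.0703).

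The called genes also included Nt5e and Acpp, whose products act on extracellular nucleotides, and 1 NK-type receptor gene, Klrd1. Nt5e (CD73), which turns extracellular AMP into adenosine, was 5.94, 5.91, 5.63 and 6.28 in Th17 and 4.71, 3.44 and 3.70 in Th2, a 3.97-fold rise (adjusted p = 0.0391). Acpp, an acid phosphatase that can also act on AMP outside the cell, was 6.58, 6.45, 6.22 and 5.73 against 4.60, 4.34 and 4.26 (3.59-fold, adjusted p = 0.00788). Upp1, which splits uridine, was 5.62, 6.36, 6.57 and 6.91 against 4.78, 4.32 and 4.52, a difference of 1.82 that did not pass (adjusted p = 0.102). Of 10 listed adenosine and nucleoside genes, Nt5e was the 1 called (0.0766% of all genes were), and the median difference was -0.01. Acpp is not on that list. Klrd1 (CD94), the partner chain of NKG2 receptors, was 6.21, 6.51, 7.17 and 5.84 in Th17 and 3.79, 3.70 and 3.99 in Th2, a 6.07-fold rise (adjusted p = 0.0177). Its partner Klrc1 was 4.74, 4.88, 5.18 and 5.06 against 3.52, 4.24 and 4.20, also without overlap, with a difference of 0.98 (adjusted p = 0.337). Klrk1 (NKG2D) differed by 0.94 (adjusted p = 0.444) and its groups overlapped.

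The largest called difference was that of a protease, and the third was that of an enzyme of creatine synthesis. Ctsw, cathepsin W, a cysteine protease otherwise known from cytotoxic lymphocytes, was 9.92, 9.75, 9.80 and 9.49 on the Th17 arrays and 6.58, 5.69 and 4.62 on the Th2 arrays. The SD was 0.18 over the Th17 arrays and 0.98 over the Th2 arrays, and the difference was 4.11 (SE 0.40, 95% interval 3.23 to 5.00), a 17.3-fold rise with adjusted p = 0.00446. Gatm, which makes the precursor of creatine from arginine and glycine, was 8.0, 6.31, 6.81 and 7.76 in Th17 and 3.54, 2.79 and 3.28 in Th2. Its difference was 4.02 (SE 0.36, 95% interval 3.22 to 4.82), a 16.2-fold rise with adjusted p = 0.00321. Gatm was the 1 called gene of 14 listed for creatine and arginine metabolism, where 0.0766% of all genes were called. The median difference of that list was 0.04.

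Genes acting on the matrix and the cell surface followed. Adam19, a membrane metalloprotease, was 8.41, 7.53, 7.83 and 8.71 in Th17 and 5.76, 5.52 and 5.99 in Th2 (5.15-fold, adjusted p = 0.0177), and a second probe set of Adam19 differed by 1.94. Plod2, which hydroxylates lysines of collagen, was 6.25, 5.97, 5.96 and 6.93 against 4.24, 4.30 and 4.23, with the 3 Th2 arrays close to one another (4.06-fold, adjusted p = 0.00788). Cpd, a carboxypeptidase of the secretory pathway, was 9.14, 9.14, 8.78 and 9.56 against 7.10, 7.99 and 7.77 and did not pass (difference 1.54, adjusted p = 0.086). Of 19 matrix and protease genes, 3 rose (Plod2, Adam19 and Ctsw), where 0.0586% of all genes did. In 7 Th17 was wholly above Th2 (2.60% of all genes) and in 0 wholly below, and the median difference was 0.59. The list was drawn up with earlier results known, so its count of calls largely restates them. The remaining called genes that rose were Cldnd1, a claudin-domain membrane protein, at 9.34, 8.78, 8.93 and 9.21 against 7.29, 7.41 and 7.22 (3.39-fold, adjusted p = 0.0391), and Slc15a3, a peptide and histidine transporter of lysosomes, at 5.73, 5.66, 6.13 and 5.63 against 4.74, 4.37 and 4.01 (2.66-fold, adjusted p = 0.0309).

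The 4 genes that fell in Th17, or equally were higher in Th2, had unlike roles. Dusp6, a phosphatase that switches off ERK, was 7.99, 7.99, 8.60 and 8.57 in Th17 and 9.53, 10.25 and 10.00 in Th2, a 3.11-fold fall (adjusted p = 0.0391), and a second probe set differed by -2.25. Gramd1b, a carrier of cholesterol from the plasma membrane to the endoplasmic reticulum, was 6.11, 6.34, 6.37 and 5.85 against 7.32, 8.33 and 7.84 (3.17-fold, adjusted p = 0.0329). Clec2i, a C-type lectin that is a ligand of an NK receptor, was 4.39, 4.13, 3.89 and 4.33 against 6.05, 6.44 and 5.23 (3.29-fold, adjusted p = 0.0391). S100a1, a calcium-binding protein, was 4.44, 4.20, 4.04 and 3.97 against 5.73, 5.45 and 5.47 (2.62-fold, adjusted p = 0.0177). S100a1 was the 1 called gene of 9 S100 genes and Clec2i the 1 of 9 lectin-like receptor genes of the Clr and Nkrp1 family. Over all genes 0.0766% were called.

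The list of MAP kinase feedback genes, 19 in all, had Dusp6 as its 1 called member (0.0766% of all genes were called). In 4 Th17 was wholly below Th2 (3.00% of all genes) and in 1 wholly above (2.60%), and the median was -0.39. Dusp2, a nuclear ERK phosphatase, was 7.26, 7.25, 6.98 and 7.28 in Th17 and 7.43, 8.49 and 8.03 in Th2, with a small gap between the groups (difference -0.79, adjusted p = 0.569). Egr3, an early response transcription factor, was 5.70, 4.99, 5.69 and 4.44 against 6.98, 7.20 and 5.96 (difference -1.51, adjusted p = 0.337). Without Th2 replicate 1, Dusp2 had an adjusted p of 0.0469 and Egr3 one of 0.161, and 4 of the 19 genes fell, where 0.478% of all genes did.

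Just outside the threshold, the 15 genes of next smallest p with groups that did not overlap were 10 higher and 5 lower in Th17, with Ahr, Rora, Il1r1, Il23r, Ccr7, Cpd and Gata3 among them. Neurl3, a ubiquitin ligase, was 8.38, 7.27, 8.10 and 7.27 in Th17 and 5.79, 4.90 and 5.20 in Th2 (difference 2.46, adjusted p = 0.0692). Cpox, an enzyme of heme synthesis, was 7.80, 7.33, 7.65 and 7.10 against 6.0, 5.37 and 5.71 (difference 1.77, adjusted p = 0.0692, or 0.0355 and 0.0481 without Th0 replicates 1 and 3). Dst, a large linker of the cytoskeleton, differed by 1.55 (adjusted p = 0.0762, or 0.0427 without Th17 replicate 3), and Fam3c, a secreted protein, by 1.45 (adjusted p = 0.0828). On the Th2 side, Nrn1, a membrane-anchored protein known as neuritin, was 4.40, 4.61, 4.16 and 5.11 in Th17 and 5.88, 5.92 and 6.24 in Th2 (difference -1.44, adjusted p = 0.0586, or 0.0126 without Th17 replicate 4). Crim1, a transmembrane protein that binds growth factors, was 4.55, 4.57, 4.27 and 4.37 against 6.34, 5.92 and 5.35 (difference -1.43, adjusted p = 0.0692, or 0.0371 without Th2 replicate 3). Without Th2 replicate 2 the adjusted p was 0.375 for Cpox, 0.396 for Dst, 0.230 for Nrn1 and 0.332 for Crim1.

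The classical Th2 genes gave 0 calls among 7 cytokines, 9 receptors and surface genes and 14 transcription factors. The share called over all genes was 0.0766%. Gata3, the master regulator of the Th2 fate, was 8.15, 7.28 and 7.14 in Th2 and 6.04, 5.41, 5.67 and 6.21 in Th17. The groups did not overlap, and the difference Th17 minus Th2 was -1.69 (95% interval -2.31 to -1.07, adjusted p = 0.0769), or -1.03 by a second probe set. Il4 was 8.54, 9.07 and 9.32 in Th2 and 7.86, 6.33, 6.94 and 7.54 in Th17, again without overlap (difference -1.81, 95% interval -2.69 to -0.93, adjusted p = 0.241). The Th2 cultures had received IL-4 protein, and transcripts of Il4 are those of the cells.

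Other Th2 cytokines overlapped between the groups. Il5, which drives eosinophils, was 5.70, 6.61 and 6.51 in Th2 and 4.39, 5.58, 4.15 and 5.74 in Th17 (difference -1.31, adjusted p = 0.616). Il13 was 9.58, 9.62 and 11.03 in Th2 and 9.49, 10.21, 9.07 and 9.83 in Th17, with a 95% interval of the difference of -1.26 to 0.40. Il3 was 7.46, 10.97 and 9.94 in Th2 and 5.04, 6.76, 7.01 and 7.78 in Th17, and Th2 replicate 1 alone lay within the Th17 range (difference -2.81, adjusted p = 0.672). Il10, which both fates can make, differed by 0.36 (95% interval -0.61 to 1.32). Il4ra, the IL-4 receptor chain, was 9.77, 7.49 and 6.05 in Th2 and 9.33, 8.94, 8.84 and 7.60 in Th17, so that the Th2 group held both the highest and the lowest array. Of the genes listed as responding to IL-4 and STAT6, 1 of 15 was called, where 0.0766% of all genes were. The 1 was Dusp6, which the list shares with the MAP kinase genes, and the median difference of the list was -0.04.

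Genes listed as TGFβ responses had 3 called members of 20, Ctsw, Itgae and Nt5e, all of which rose (0.0586% of all genes did). Another 4, so 7 in all, had Th17 wholly above Th2, where 2.60% of all genes did. Ldlrad4, an inhibitor of TGFβ signalling, was among these 4, at 6.48, 6.85, 5.99 and 5.61 against 5.00, 4.40 and 4.67 (difference 1.54, adjusted p = 0.1). Its adjusted p was 0.0331 without Th17 replicate 4 and 0.521 without Th2 replicate 2. The median of the list was 0.54, and its mean level ran from 5.93 to 6.24 over the Th17 arrays and from 5.24 to 5.49 over the Th2 arrays. The list was drawn up with earlier results of these arrays known and is no independent evidence of its direction. Among 18 genes of the IL-6 and STAT3 response 0 were called (0.0766% of all genes were), and the median was 0.38. In 3 Th17 was wholly above Th2 (2.60% of all genes) and in 1 wholly below (3.00%). Socs3, the feedback inhibitor that STAT3 induces, was 8.25, 8.14, 8.66 and 7.75 in Th17 and 7.14, 5.81 and 5.62 in Th2 (difference 2.01, adjusted p = 0.102). Pim1, a kinase induced by several cytokines, went the other way, at 8.0, 7.87, 7.66 and 7.75 against 8.15, 9.06 and 8.61 (difference -0.79, adjusted p = 0.728).

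**Figure D3:**
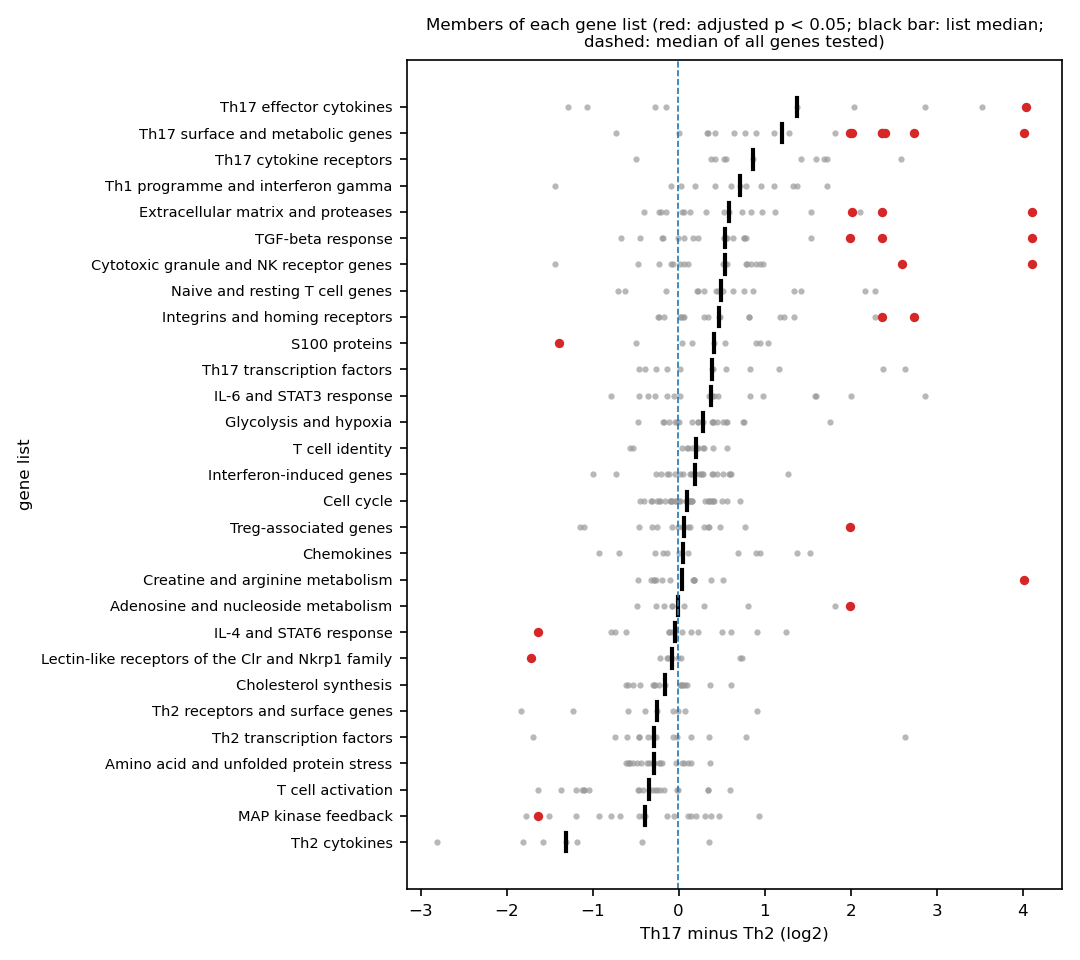
Difference Th17 minus Th2 in log2 (x axis) of every measured member of 29 gene lists (y axis), ordered by the list median (black bar), with called genes in red and the median of all genes as a dashed line. The Th17 effector cytokines have the highest median, 1.38, and the Th2 cytokines the lowest, -1.31, and 7 of the 18 Th17 surface and metabolic genes are red.

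The Th17 surface and metabolic list had the most calls, 7 of 18, namely Gpr15, Pdpn, Gatm, Nt5e, Plod2, Adam19 and Itgae, with a median difference of 1.20. That list had been drawn up with the called genes of these arrays known, so its count only restates them. Over all genes 0.0766% were called, and lists of general cell state had no called member. For 36 cell cycle genes the median was 0.10 and for 21 glycolysis and hypoxia genes 0.28. For 17 cholesterol synthesis genes it was -0.15, and for 21 genes of amino acid and unfolded protein stress -0.29. Without Th2 replicate 1 these medians were 0.55, 0.43, 0.09 and -0.29. Within the stress list 4 genes had Th17 wholly below Th2 (3.00% of all genes). They included the transporter chain Slc3a2 and the serine synthesis enzyme Psat1, with differences of -0.56 and -0.61 and adjusted p-values of 0.676 and 0.799.

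The master regulators of other T cell fates did not pass in either direction. Tbx21, the master regulator of Th1 cells, was 5.79, 6.50 and 6.51 in Th2 and 5.89, 6.33, 6.26 and 6.26 in Th17, a difference of -0.08 (95% interval -0.55 to 0.39). Ifng was 8.0, 9.50 and 10.31 in Th2 and 8.40, 9.93, 9.48 and 10.05 in Th17, with an interval of -1.22 to 1.62. The protein that Ifng encodes was neutralised by antibody in both groups. Foxp3, the regulator of regulatory T cells, for which TGFβ is also a signal, was 7.51, 5.93 and 6.06 in Th2 and 7.55, 6.77, 6.70 and 6.92 in Th17, with an interval of -0.36 to 1.32. These intervals leave room for changes of more than 2-fold in Ifng and Foxp3 and not in Tbx21. Of 13 Th1 genes, 26 interferon-induced genes and 17 genes associated with regulatory T cells, the numbers called were 0, 0 and 1 (Nt5e). The share called over all genes was 0.0766%. The median differences of these lists were 0.72, 0.19 and 0.06, beside -0.01 for all genes. Of the 13 Th1 genes, 11 had a difference above 0 and 2 below.

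The called genes were also set beside the Th0 cultures, which received no cytokine and no antibody against IFNγ. The Th0 mean was nearer the Th2 mean for 15 of the 17 genes and nearer the Th17 mean for Ctsw and Clec2i. This placement is a description, since Th17 minus Th0 and Th2 minus Th0 share the Th0 arrays. The 17 genes were also chosen on the same Th17 and Th2 arrays. Calls among them in Th17 against Th0 are therefore partly built in and are no separate evidence. Il17f was 5.59, 5.68 and 4.98 on the Th0 arrays, so Th17 minus Th0 was 4.85 (adjusted p = 0.000676) and Th2 minus Th0 was 0.81 (adjusted p = 0.793). Gatm was 3.44, 3.65 and 3.27 in Th0, with differences of 3.76 (adjusted p = 0.00412) for Th17 and -0.25 (adjusted p = 0.941) for Th2. In all, 11 of the 17 were also called in Th17 against Th0 (0.104% of all genes), while Th2 against Th0 gave 0 called genes by limma (0.00%), with 1407 at an unadjusted p under 0.05 (6.34%).

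Ctsw was the gene in which both polarised groups lay apart from Th0 by about as much. It was 7.92, 8.17 and 7.0 in Th0, between the 2 groups, and Th17 minus Th0 was 2.04 (adjusted p = 0.146) and Th2 minus Th0 was -2.07 (adjusted p = 0.767). Clec2i was 5.02, 4.80 and 4.91 in Th0, again between the groups and overlapping neither, with Th17 minus Th0 at -0.72 and Th2 minus Th0 at 1.00. For Dusp6 these were -0.96 and 0.68, and for Gramd1b -1.05 and 0.61. S100a1 did not share this, with Th17 minus Th0 at -1.33 (adjusted p = 0.0316) and Th2 minus Th0 at 0.06. Gata3 was 7.43, 8.14 and 7.68 in Th0, levels that overlap those of Th2 and lie above all Th17 arrays.

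Of the arrays left out one at a time, Th2 replicate 1 changed the number of called genes most. Without it, leaving 2 Th2 arrays, 298 genes were called (1.34%), 192 higher (0.866%) and 106 lower (0.478%) in Th17, and all 17 genes were among them. The 10 largest decreases without it included several genes that T cell receptor signals are known to induce. Egr1, an immediate early transcription factor, was 6.41, 8.60 and 7.94 on Th2 replicates 1 to 3 and 6.23, 6.01, 5.33 and 5.96 on the Th17 arrays. The difference was -1.77 (adjusted p = 0.296) with all arrays and -2.39 (adjusted p = 0.00666) without Th2 replicate 1. Nr4a1, an orphan nuclear receptor induced by receptor signals, was 7.21, 10.12 and 9.47 in Th2 and 8.40, 7.30, 6.94 and 7.63 in Th17, so that Th2 replicate 1 lay within the Th17 range. Its difference was -1.37 (adjusted p = 0.753) with that array and -2.23 (adjusted p = 0.0273) without it.

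Further genes of the 10 largest decreases had low values on Th2 replicate 1 too. Fosb, of the AP-1 family, was 3.01, 7.56 and 6.46 in Th2 against 5.44, 4.07, 3.59 and 3.62 in Th17, and the stress chaperone gene Hspa1b was 3.60, 7.71 and 5.64 against 3.90, 3.23, 3.57 and 3.88. The differences without Th2 replicate 1 were -2.83 for Fosb and -3.03 for Hspa1b, both with adjusted p = 0.0273, and with it -1.50 (adjusted p = 0.894) and -2.01 (adjusted p = 0.672). Cd40lg, the helper signal to B cells, was 7.88, 10.33 and 9.84 against 7.89, 7.60, 7.29 and 8.10 (-2.37 without the array, adjusted p = 0.042, and -1.63 with it, adjusted p = 0.653). Csf2, the cytokine GM-CSF, was 6.06, 8.62 and 8.12 against 6.06, 6.90, 5.79 and 6.48 (-2.06, adjusted p = 0.0273, and -1.29 with the array, adjusted p = 0.739). Il31, a Th2 cytokine of itch, was 3.04, 6.02 and 4.82 against 3.32, 3.13, 2.70 and 3.05 (-2.37, adjusted p = 0.0113, and -1.58 with the array, adjusted p = 0.624). These genes were chosen for the size of their difference in the fit without Th2 replicate 1. That choice favours genes in which Th2 replicates 2 and 3 lie far from Th17. The place of Th2 replicate 1 beside them is a description and no separate result.

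Among the 10 largest increases, chosen the same way, Th2 replicate 1 was the high array of its group for Cytip, Socs2 and Treml2. The same held for Aff3, Cysltr1, Maf, Ctsw and Gatm, but not for Il17f or Gpr15. Cytip, which regulates adhesion of activated lymphocytes, was 8.56, 5.27 and 5.43 in Th2 and 8.94, 8.43, 8.52 and 7.79 in Th17. Without Th2 replicate 1 the difference was 3.07 (adjusted p = 0.00666), and with it 2.00 (adjusted p = 0.637). Socs2, a cytokine feedback inhibitor, was 8.53, 4.37 and 3.59 in Th2 and 7.37, 5.82, 7.19 and 6.62 in Th17, so the highest and the lowest of the 7 arrays were both Th2 (2.77 without the array, adjusted p = 0.0338, and 1.25 with it, adjusted p = 0.936). Treml2, a receptor of the TREM family, was 7.84, 5.24 and 5.07 against 8.19, 7.92, 8.35 and 7.39 (2.81 without the array, adjusted p = 0.026, and 1.91 with it, adjusted p = 0.631). Maf had a difference of 2.95 (adjusted p = 0.0296) and Socs3 one of 2.48 (adjusted p = 0.00666) without the array. Gata3 passed at -1.38 (adjusted p = 0.0344), Ahr at 2.31 (adjusted p = 0.0322), Il23r at 1.68 (adjusted p = 0.0357) and Il1r1 at 2.26 (adjusted p = 0.0433). Il17a (2.86, adjusted p = 0.166), Il21 (2.50, adjusted p = 0.128) and Il4 (-2.03, adjusted p = 0.055) did not pass there either. Of 21 T cell activation genes, 0 were called with all arrays and 4 fell without Th2 replicate 1, where 0.478% of all genes did. Their median was -0.69 without that array and -0.34 with it.

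**Figure D4:**
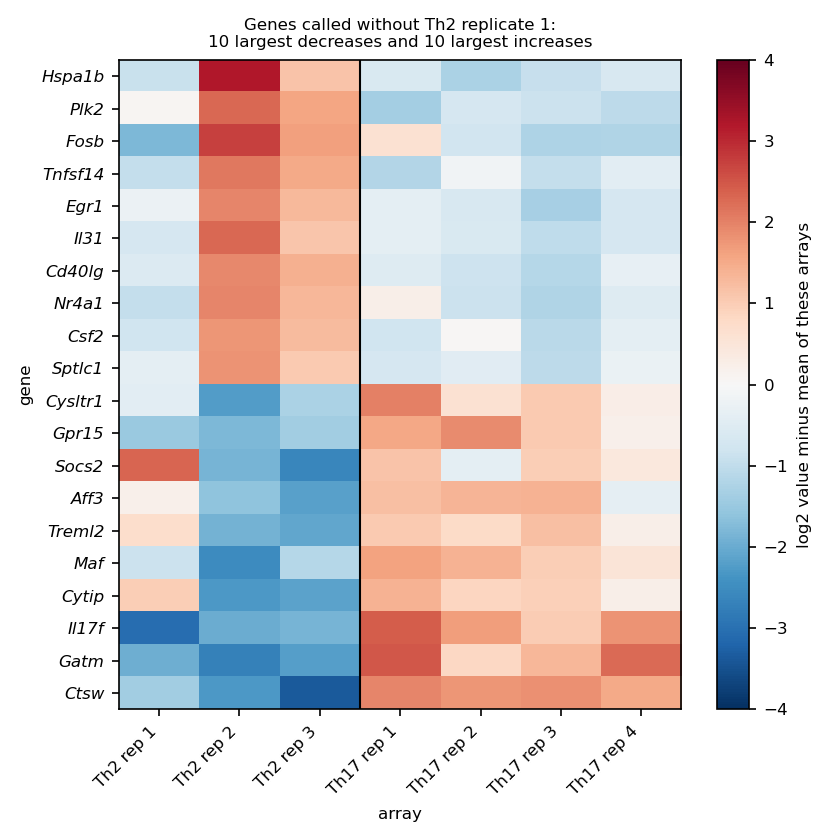
Log2 expression level minus the mean of the 7 arrays (colour) for the 10 largest decreases and 10 largest increases among genes called without Th2 replicate 1 (rows), on each Th2 and Th17 array (columns). For Fosb, at 3.01 on Th2 replicate 1 and 7.56 and 6.46 on the other Th2 arrays, the first column differs from its own group. The genes were chosen by their difference without that array, so this is a description.

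Leaving out another array removed calls. Without Th2 replicate 2 only Il17f, Ctsw and Gatm of the 17 stayed called, and the other 14 had adjusted p-values from 0.0724 to 0.236. Without Th2 replicate 3, 6 stayed called (lost: 0.0533 to 0.209), and without Th17 replicates 1, 2, 3 and 4 in turn 7, 8, 9 and 12 did (lost: 0.0512 to 0.14, 0.0768 to 0.151, 0.0753 to 0.14 and 0.0555 to 0.0581). Without Th0 replicates 1, 2 and 3, which enter only through the shared estimate of spread, 10, 10 and 9 stayed (lost: 0.051 to 0.0703, 0.0555 to 0.0812 and 0.0556 to 0.0681). Plod2 and Acpp were lost only without Th2 replicate 2, at 0.0724 and 0.0863. Nt5e and Gramd1b were lost without every array other than Th2 replicate 1. None of the 17 differences changed sign in these fits.

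Transcripts of other cell types were present on some arrays. Cpa3, a protease of mast cells and basophils, was 9.28 and 9.35 on Th17 replicates 2 and 3 and 4.17 and 3.45 on replicates 1 and 4, and 6.20, 3.30 and 3.74 on the Th2 arrays. Mcpt1, a mast cell protease, was not on the marker list. Mcpt1 was 10.15 and 9.88 on the same Th17 arrays, 6.08 and 2.73 on the others, and between 2.55 and 3.31 in Th2. The difference for Mcpt1 was 4.34, more than that of any called gene, but with the Th17 arrays so far apart its adjusted p was 0.653. The mean of the 15 basophil and mast cell markers was 3.68, 5.26, 5.19 and 3.38 on the Th17 arrays and 4.06, 3.46 and 3.62 on the Th2 arrays. Of these 15 markers, 11 had a difference above 0 and 4 below, with a median of 0.52, and 0 were called. The neutrophil gene S100a8 was 7.16 on Th17 replicate 1 and between 2.54 and 2.80 on the other 6.

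**Figure D5:**
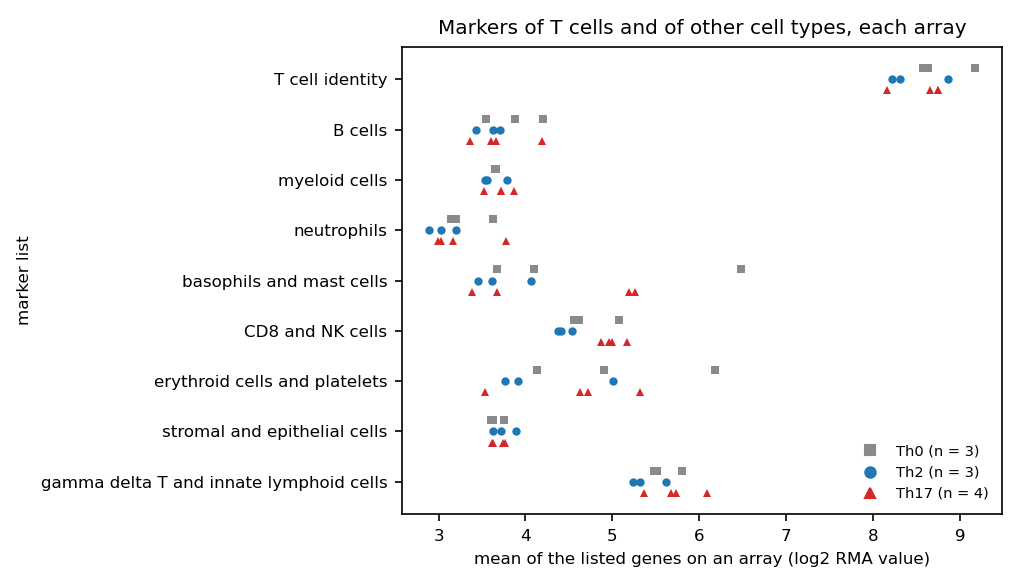
Mean log2 expression level of the measured genes of each marker list (x axis) on every array, with squares for Th0, circles for Th2 and triangles for Th17. The Th17 triangles split in the basophil and mast cell row, at 5.26 and 5.19 against 3.68 and 3.38, while T cell identity genes lie between 8.16 and 8.86 on the 7 arrays.

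These markers were set beside the called genes. Ctsw was 9.92 and 9.49 on Th17 replicates 1 and 4, where the mast cell markers were low, and 9.75 and 9.80 on replicates 2 and 3, where they were high. Without Th17 replicates 2 and 3 and Th0 replicate 1, the arrays highest in these markers, 6 genes stayed called (Il17f, Gatm, Pdpn, Adam19, Plod2 and Cldnd1), and Ctsw had a difference of 4.08 with adjusted p = 0.249. Itgae, which was higher on the same pair of Th17 arrays, then had a difference of 1.71 (adjusted p = 0.114). The 11 measured markers of CD8 and NK cells had a mean of 4.99, 4.97, 5.17 and 4.87 in Th17 and 4.41, 4.38 and 4.54 in Th2, so they were higher on every Th17 array, and Klrd1 is one of these markers. Cd8a was 4.88, 4.03, 3.49 and 3.92 in Th17 and 3.05, 3.40 and 3.58 in Th2. Of these 11 markers, 9 had a difference above 0 and 2 below, with a median of 0.51, and Klrd1 alone was called. The part of CD8 or NK cells in the level of Klrd1 was not tested. Of 19 cytotoxic granule and NK receptor genes, Ctsw and Klrd1 rose, where 0.0586% of all genes did. In 6 Th17 was wholly above Th2 (2.60% of all genes) and in 2 wholly below (3.00%), and the median was 0.54.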

How the data were processed

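RNA of 10 cultures (3 Th0, 3 Th2, 4 Th17) came from column purification with DNase, low-input whole-transcriptome amplification and biotin labelling, per the labels' protocols. The authors deposited log2 values for each probe set. Per the submitters' processing notes they were produced with RMA (background correction, quantile normalization, probe set summary) by the software Affymetrix Expression Console 1.3.0.187. Since RMA aligns the arrays' distributions, a shift in the total RNA of a cell is lost, and differences of weakly expressed genes come out too small. The number of arrays limits the precision. Genome build and annotation version: not given in the sources used here. Groups and replicate numbers are those of the titles. The description of Th2 replicate 3 carries the number 4.

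Of 41345 probe sets, a probe table gave 1 gene symbol to 23521 and several to 1814, and 16010 were not in it. For each of 22180 genes the probe set of highest mean was used, a choice to be made for 1082 genes. No filter on low values was set. Group means of all 10 arrays were estimated with limma 3.58.1 in R 4.3.3 (lmFit and eBayes, 7 residual degrees of freedom), and the contrast Th17 minus Th2 was adjusted by Benjamini-Hochberg over all genes and called at 0.05. Folds are differences of mean log2 values on the linear scale, and 95% intervals use the moderated spread. Gene lists were described by counts and medians and not tested. On simulated arrays of this comparison with 22180 genes, the fit recovered 60.3% of changed genes at a log2 change of 1, 86.4% at 2 and 98.5% at 4, with 10 false calls. The simulated noise was normal and drawn separately for each gene and array. It held no difference shared by many genes of an array, as the real arrays do. The rates are therefore not the power of the comparison on the real arrays.

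Named genes were all called genes, the 15 next by p without overlap (not all are printed), 19 genes of the Th17, Th2, Th1 and regulatory T cell fates, the members of each list with the smallest p, markers of highest level, and the 20 with the largest changes without Th2 replicate 1. The ranked choices skipped olfactory and vomeronasal receptors, segments of antigen receptors, small RNAs and gene models without a name. The genes and lists were chosen with earlier results of these data known. Cd3e, Cd4, Cd8a and Mcpt1 were named outside these rules. 52 of 536 listed genes were not analysed here. Promoter windows are RefSeq's (GRCm38.p6), without the bases after the start. Alternatives were another normalization, a filter, other probe set rules, other variance moderation, array weights, replicate blocks and fits without 1 or 3 arrays.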

Additional observations from a re-analysis of the deposited data

Results flagged for a closer look

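In 9 of 109 sets of the 4 Th17 values looked at, the gap between 1 array and its nearest neighbour took up more of the range than Dixon's 95% limit allows, and chance alone does this in about 1 set of 20. Th17 replicate 4 was the array apart on the first principal component (gap of 0.854 of the range), where it stood at 37.5. It was also apart, and low, for the mean of the naive and resting T cell genes (0.922), the mean of the T cell identity genes (0.847) and Cd4 (0.879). Th17 replicate 1 was apart for the mean of the Th17 transcription factors (0.844, high), S100a8 (0.97, high) and Tbx21 (0.836, low), and Th17 replicate 3 for Dusp2 (0.888, low) and Slc3a2 (0.89, low). None of the 17 called genes was among them.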

How the results depend on the processing

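The count of 17 called genes (13 higher, 4 lower in Th17) ranged from 3 to 298 when 1 array was left out, with 3 to 192 higher and 0 to 106 lower. With array weights 330 were called (188 higher, 142 lower). Th2 replicates 1 to 3 had weights of 0.432, 2.25 and 0.516 there, so the Th2 mean rested mostly on replicate 2. Th17 replicate 4 had a weight of 0.599, and the other Th17 arrays had 1.34 to 1.56. Fitted on the Th17 and Th2 arrays only, 13 were called, 1 of them lower and 9 shared with the 17. Without the 3 arrays apart on the first component 8 were higher and 8 lower, 6 of them shared with the 17 and Gatm lost (adjusted p = 0.0877), with Th2 replicate 1 as the lone Th2 array, assumed to vary like the other groups. Without Th0 replicate 1 and Th17 replicates 2 and 3, highest in mast cell markers, 6 were called, 6 higher and 0 lower. Changes of moderation, filter, normalization and probe set rule gave 13 to 23. Normalizing again gave 78.3% higher among the called, and centring 76.9%, beside 76.5%. Every called gene kept its direction under every alternative. All list medians kept their sign under both scalings, except those of the adenosine genes and B cell markers, which are near 0. Depth is not defined for arrays.

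Whether the replicate numbers pair the cultures was not settled. Deviations from group means of 3 or 4 arrays depend on one another, so their correlations cannot decide it. For same-numbered Th2 and Th17 arrays these were 0.296, -0.0829 and -0.309, or 0.296, -0.0829 and 0.494 by the descriptions. For arrays of unlike number they ran from -0.58 to 0.494, or from -0.58 to 0.407 by the descriptions. With the replicate block 11 genes were called, 11 higher and 0 lower, 7 of them shared with the 17, and with the descriptions' numbers 5, all higher, 0 lower. Th17 replicate 4 stands alone in the former block and adds nothing there.

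Signs turned only for differences that had not passed. Without the 3 arrays apart on the first component, the values were 0.0080 for Il13, -0.73 for Il4ra, 0.37 for Tbx21, -0.50 for Foxp3, 0.0088 for Il31, -0.26 for Cd3e, -0.48 for Cd4, 1.35 for Fosb, 0.34 for Nr4a1, 0.19 for Csf2 and -1.74 for Socs2. Without the 3 arrays of high mast cell markers they were -0.042 for Ifng, -0.61 for Cpa3, -0.026 for Cd3e and -0.050 for Cd4. With array weights Ifng was at -0.040. When single arrays were left out, the differences ran from -0.67 to 0.050 for Il13, -0.047 to 0.63 for Il10, -0.32 to 0.039 for Tbx21, -0.44 to 0.72 for Ifng, -0.099 to 1.44 for S100a8, -0.015 to 0.53 for Cd3e and -0.053 to 0.67 for Cd4. The causes were not tested.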
